A study of Rattus norvegicus with 59 samples.

Results

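Adh6, Sds, Akr1c12l1, Dhrs7l1 and Slc51b are 4 metabolic enzymes and 1 transporter subunit that were chosen by measured values: their signal differed strongly between untreated adult female and male kidneys. They are 5 of 13337 named genes and are read by 7 of the 22523 probes of the Illumina RatRef-12 array, with 2 probes each for Akr1c12l1 and Dhrs7l1. The kidneys came from 59 Fawn-Hooded Hypertensive (FHH) rats, an inbred strain with high blood pressure and progressive kidney damage, and each rat gave 1 array. Treated rats were born to dams that drank pyrrolidine dithiocarbamate (PDTC, used to block NF-kB) at 150 mg/L, starting 2 weeks ahead of birth and ending 4 weeks after it. Untreated rats are the FHH controls, so all groups share the strain. The 2-day groups held 5 rats of each sex without and 4 with PDTC. The 2-week groups held 6 males and 5 females without PDTC and 4 males and 6 females with it. In adulthood each of the 4 groups had 5 rats, with males 36 and females 42 weeks old. Sex and these 6 weeks of age cannot be told apart in adults, so a sex gap below always means 42-week females against 36-week males. Which rats shared a dam is not stated in the sources used here, and p-values therefore measure only the spread between these rats.

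Adh6 belongs to the alcohol dehydrogenases, which oxidise alcohols to aldehydes with NAD. Sds is serine dehydratase, which turns serine into pyruvate and ammonia and feeds glucose synthesis. Akr1c12l1 is an aldo-keto reductase of the 1C group, whose members reduce steroids and other carbonyl compounds. Dhrs7l1 is a short-chain dehydrogenase and reductase of the DHRS7 type. Slc51b is the beta subunit of the organic solute transporter, which works with the alpha subunit Slc51a in the basolateral membrane and lets bile acids and steroid conjugates out of epithelial cells. In rat liver and kidney many such enzymes and transporters are known to differ between the sexes after puberty, under sex hormones and the sex-specific pattern of growth hormone release. In build GRCr8 the genes lie apart, Adh6 at chr2:229576612-229608359, Sds at chr12:41743796-41751108, Akr1c12l1 at chr17:70847754-70858264, Dhrs7l1 at chr6:97025094-97047899 and Slc51b at chr8:74827047-74835109. Rats are not yet sexually mature at 2 days or 2 weeks.

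Background levels on the arrays were 59.9 to 136.6 and median signals 67.8 to 202.7, with 9139 to 12488 probes above background. All values below are log2 signals after background correction and quantile normalization, and a gap is the female minus the male mean. Pups lay on slides 1 to 6 and adults on slides 7 to 10, apart from untreated 2-week male 6 on slide 8, so age and slide can hardly be told apart. Every adult slide held both sexes. Of 10 proximal tubule markers 9 had a named probe, and each of the 9 was above background on at least 1 array of every group. Of 12 liver markers 9 had a probe, and in each adult group 2 or 3 were above background on any array, among them Fgb and Fgg in all 4 groups. Albumin (Alb), the defining liver product, was above background on 0 of 20 adult arrays. None of the 7 listed Y-linked genes had a named probe (0 of 7), so the sex labels were not checked on them. In RNA of whole kidneys, fewer cells of a type and less RNA per cell cannot be told apart.

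The gap of Adh6 ran toward females. In untreated adults the 5 females read 11.12, 10.84, 10.96, 10.99 and 9.59, and the 5 males 5.39, 4.82, 5.22, 5.83 and 5.19. Of those male arrays 0 of 5 were above background, and the female mean of 10.70 ± 0.63 (SD, n = 5) was at least 29.6-fold above them. PDTC females read 9.34, 11.83, 10.92, 9.805 and 9.43, and PDTC males 5.22, 5.46, 5.06, 5.68 and 5.63. Every adult female thus stood above every adult male with and without PDTC. Sds ran the same way with a much wider spread. Untreated females read 13.29, 10.69, 11.47, 12.92 and 8.83, and untreated males 7.90, 8.02, 5.88, 8.69 and 7.67. PDTC females read 7.74, 11.96, 11.05, 10.97 and 10.72, and PDTC males 8.97, 6.92, 7.90, 7.88 and 9.17. PDTC female 1, at 7.74, lay below 4 of the 5 PDTC males, so those groups overlapped.

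The other 3 genes ran toward males. Akr1c12l1 read 8.26, 7.38, 8.595, 8.44 and 9.02 in untreated females and 10.62, 10.79, 10.999, 12.11 and 12.11 in untreated males. In PDTC females it read 7.81, 8.84, 7.85, 7.49 and 7.02, and in PDTC males 13.24, 11.165, 11.59, 12.47 and 12.66. Both sexes expressed the gene on all 20 adult arrays, males more in either treatment. Its second probe had the same direction, at 4.84 ± 0.24 in untreated females, where it was above background on 0 of 5 arrays, and 8.66 ± 1.18 in untreated males (SD, n = 5 each). Dhrs7l1 read 4.65, 5.01, 4.80, 5.001 and 5.995 in untreated females, above background on 1 of 5 arrays, and 10.32, 10.515, 11.05, 11.69 and 12.70 in untreated males. In PDTC females it read 5.155, 5.83, 5.08, 5.86 and 5.54, above background on 2 of 5 arrays, and in PDTC males 12.59, 11.13, 11.085, 12.13 and 12.65. The males held a strong signal and the females almost none. The second probe of Dhrs7l1 disagreed: it was above background on 2 of 59 arrays, with adult group means of 4.91 to 5.21, and its gap was -0.07 without and 0.30 with PDTC, with no test. Slc51b read 4.98, 4.75, 4.99, 4.94 and 5.465 in untreated females, above background on 0 of 5 arrays, and 8.32, 8.37, 7.46, 9.22 and 8.815 in untreated males. In PDTC females it read 5.21, 4.99, 4.915, 5.11 and 5.12, again above background on 0 of 5 arrays, and in PDTC males 9.07, 8.31, 8.05, 8.52 and 8.80. The lowest male stood far above the highest female in both treatments.

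**Figure D1:**
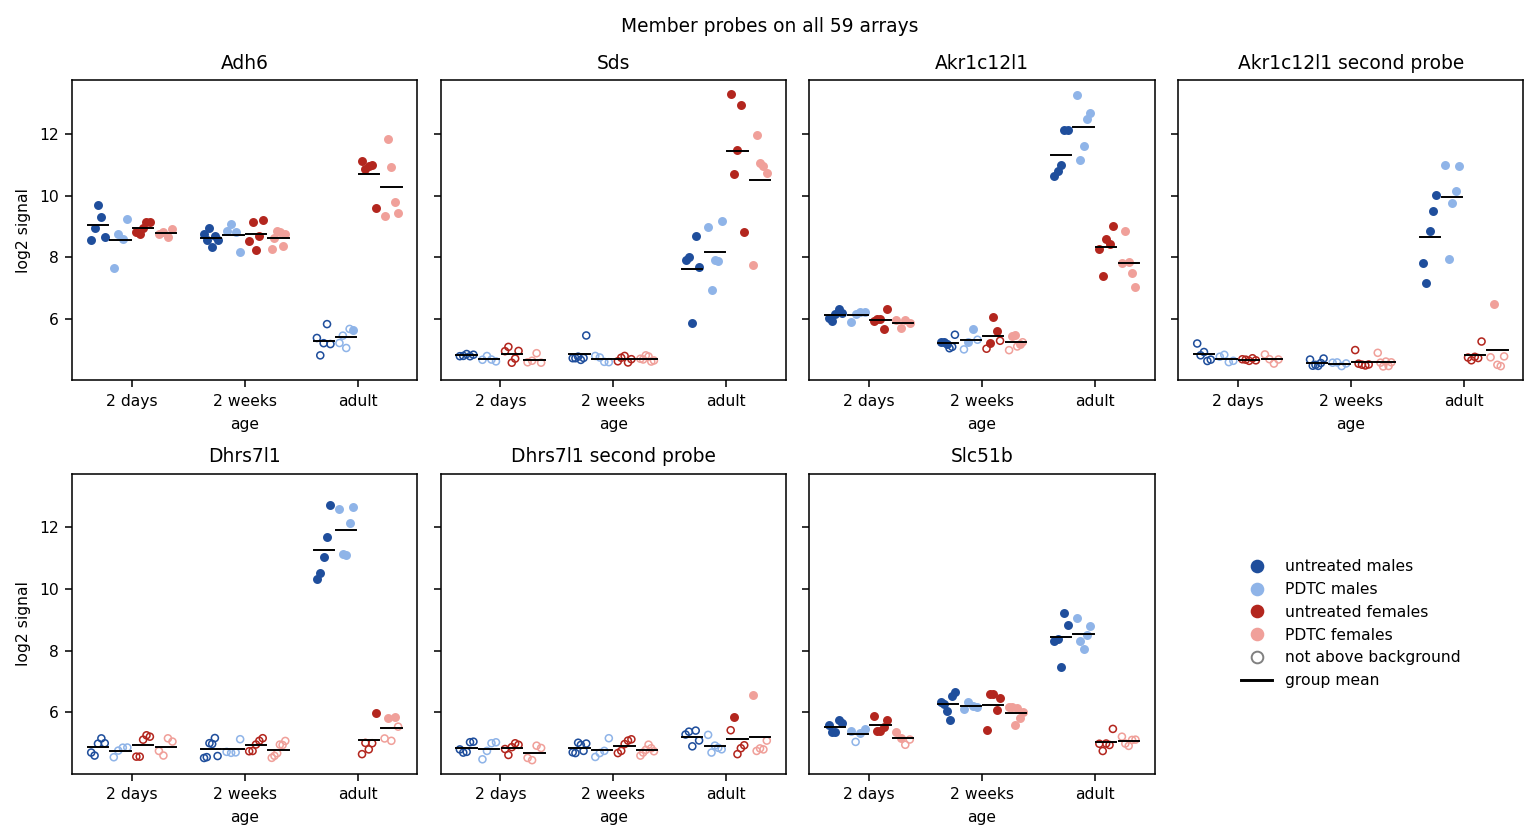
Log2 signal (y axis) of the 7 member probes in each rat at 2 days, 2 weeks and adulthood (x axis), with untreated and PDTC males in dark and light blue and untreated and PDTC females in dark and light red. Filled points are above background, open points are not, and the bars are group means. The ranges of the sexes overlap in all pup groups, and in adults they part except for Sds with PDTC and for the second probe of Dhrs7l1.

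The untreated adult gaps, which chose the genes, are given as a description with no test. They were -6.17 for Dhrs7l1, 5.41 for Adh6, 3.81 for Sds, -3.41 for Slc51b and -2.99 for Akr1c12l1. By size they ranked 1, 2, 8, 10 and 12 among 7653 named genes. The ranks between held Slc22a22, Slc22a13, Slc22a7, Cyp2d5, Angpt2, Asb11 and Cyp1a1. Just inside the group stood Akr1c12l1 at -2.99, and the next gene outside was Cxcl1, a neutrophil chemokine, at 2.94. All 4 slides with adults of both sexes gave the same sign as the pooled gap for each of the 5 genes. Within slides the gap was 5.10 to 5.83 for Adh6, 2.78 to 5.39 for Sds, -3.51 to -2.36 for Akr1c12l1, -7.21 to -5.68 for Dhrs7l1 and -4.23 to -3.16 for Slc51b.

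The promoters of genes with a gap in opposite directions are shown for their letters. RefSeq sequence of build GRCr8 was at hand for 4 of the 5 genes as windows of 300 bases. They begin 226 bases before the gene start given above for Adh6 and 250 bases before it for the other 3. The windows are chr2:229576386-229576685 on the plus strand for Adh6, chr17:70847504-70847803 on the plus strand for Akr1c12l1 and chr6:97047850-97048149 on the minus strand for Dhrs7l1. They are printed 5′ to 3′ along the gene, and capitals mark matches on either strand to TGTTCT (core of the androgen and glucocorticoid receptor site), AGGTCA (core of many nuclear receptor sites), TTCNNNGAA (a STAT site) or GTTAAT (core of the HNF1 site).
Adh6: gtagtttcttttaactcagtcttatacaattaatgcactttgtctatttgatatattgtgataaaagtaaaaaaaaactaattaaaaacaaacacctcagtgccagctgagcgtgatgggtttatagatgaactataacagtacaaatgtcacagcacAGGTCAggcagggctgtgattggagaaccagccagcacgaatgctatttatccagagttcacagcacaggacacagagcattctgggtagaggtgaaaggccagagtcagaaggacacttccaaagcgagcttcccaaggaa
Akr1c12l1: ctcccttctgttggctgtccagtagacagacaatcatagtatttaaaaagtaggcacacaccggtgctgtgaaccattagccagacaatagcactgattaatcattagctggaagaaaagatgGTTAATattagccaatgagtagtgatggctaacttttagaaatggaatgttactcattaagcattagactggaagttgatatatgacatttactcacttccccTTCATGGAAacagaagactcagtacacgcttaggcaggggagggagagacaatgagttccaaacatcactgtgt
Dhrs7l1: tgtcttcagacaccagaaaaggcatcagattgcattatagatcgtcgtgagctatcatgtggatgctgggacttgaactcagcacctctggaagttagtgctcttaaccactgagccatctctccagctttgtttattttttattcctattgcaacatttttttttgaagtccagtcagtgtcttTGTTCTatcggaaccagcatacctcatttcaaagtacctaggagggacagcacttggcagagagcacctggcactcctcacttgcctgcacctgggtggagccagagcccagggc
Adh6 held 1 AGGTCA, which began 68 bases before its start. Akr1c12l1 held 1 GTTAAT at 127 bases and 1 TTCNNNGAA at 24 bases before the start. Dhrs7l1 held 1 TGTTCT at 65 bases before the start, and Slc51b, on chromosome 8, held 1 AGGTCA at 132 bases before it. No matches overlapped. Such letters are common: of 33469 promoter windows of this length 20.7% held TGTTCT, 16.2% AGGTCA, 8.87% TTCNNNGAA and 7.45% GTTAAT. The matches are a description of these windows and say nothing of binding.

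The 10 PDTC adults took no part in the choice, and the gap was tested in them alone. Dhrs7l1, Adh6, Akr1c12l1 and Slc51b differed between the sexes again and in the same direction. The gap of Dhrs7l1 was -6.42 ± 0.33 (SE, n = 5 per sex, limma adjusted p = 1.56e-06), with 2 of 5 female arrays above background. That of Adh6 was 4.86 ± 0.43 (limma adjusted p = 0.000123), with 1 of 5 male arrays above background. Akr1c12l1 was 21.4-fold higher in males, with a gap of -4.42 ± 0.41 (limma adjusted p = 0.000214), and its second probe gave -4.96 ± 0.56 (limma adjusted p = 0.00112) with 1 of 5 female arrays above background. Slc51b was at least 6.50-fold higher in males, and its fitted gap was -3.48 ± 0.19 (limma adjusted p = 2.22e-06). Sds was 4.99-fold higher in females but its gap of 2.32 ± 0.69 did not pass (limma adjusted p = 0.164). Without PDTC female 1 it was 3.01 and passed (limma adjusted p = 0.0124). The sizes depend on the background correction: on the deposited log2 values, the gap was 3.40 for Adh6, -4.98 for Dhrs7l1, -3.42 for the second Akr1c12l1 probe and -2.01 for Slc51b, each still called.

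Of the 7 member probes 6 could be tested in these adults and 5 passed, against 0.731% of the 10814 probes tested. Higher in females was 1 member probe against 0.305% of all probes, and lower were 4 against 0.425%. The 2 sexes did not overlap for 5 member probes, against 2.89% of all probes tested. Since the members entered for the same gap in untreated rats, these counts describe how the choice carried over to other animals. Adh6, Dhrs7l1, Slc51b and the second Akr1c12l1 probe also reached the 4 arrays above background needed for a test only through the sex where they are high. Only Sds and the first Akr1c12l1 probe were above background on all 10 arrays. The counts are thus no support for a gap. The number of probes called over the whole array moved with single rats. It was 79 with all 10 rats, 655 without PDTC male 2, and 42, 40, 44 and 43 without PDTC male 1, PDTC male 5, PDTC female 1 and PDTC female 4. The 5 member probes passed in each of these fits. Within the 4 adult slides the gap kept its sign for Adh6 (3.80 to 6.77), Akr1c12l1 (-5.64 to -2.75), Dhrs7l1 (-7.11 to -5.26) and Slc51b (-3.69 to -3.06), and for Sds it ran from -0.21 to 4.06, above 0 on 3 of 4.

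**Figure D2:**
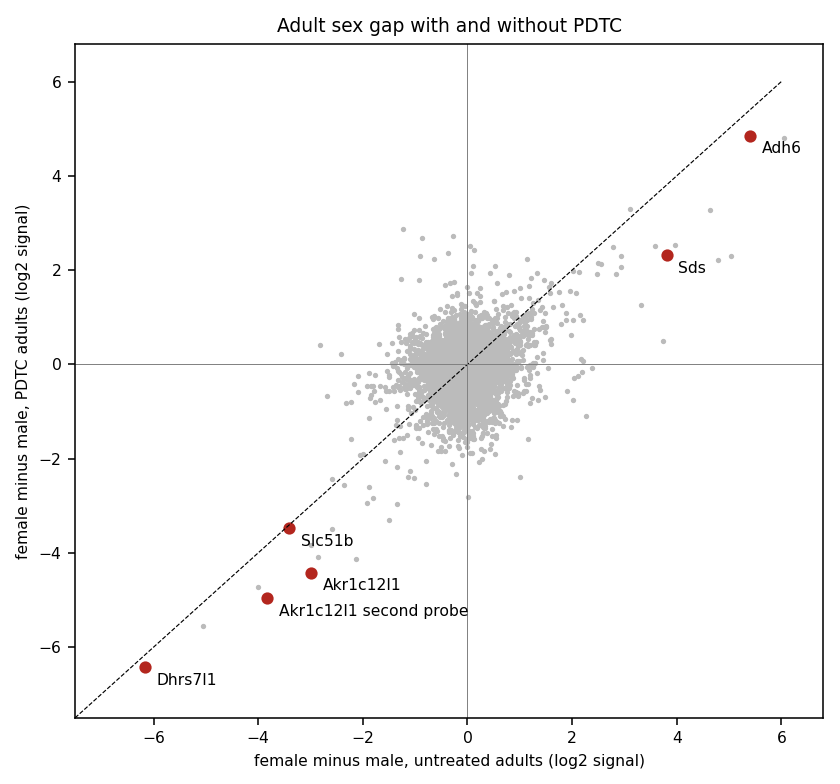
Female minus male log2 signal in untreated adults (x axis) against that in PDTC adults (y axis) for the 10814 probes tested in PDTC adults, each grey point 1 probe, with the member probes in red and a dashed line of equal gaps. The members lie far from the centre in the same quadrant in both treatments, Dhrs7l1 at -6.17 and -6.42 and Adh6 at 5.41 and 4.86.

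Markers of other cells were read in the same adults. The summed signal of 9 liver markers was 201 to 902 in PDTC males and 378 to 1178 in PDTC females, and 274 to 816 in untreated males and 219 to 606 in untreated females. The sum of 6 fat markers was 3903 to 4861 in PDTC males, 4201 to 8088 in PDTC females, 2628 to 4514 in untreated males and 2811 to 5921 in untreated females. Fabp4, the fatty acid carrier of fat cells and capillaries, had a gap of 1.93 ± 0.68 in PDTC adults that did not pass (limma adjusted p = 0.213). In untreated adults Fabp4 read 8.32 ± 0.63 in females and 6.99 ± 0.62 in males, and Adipoq, the fat cell hormone adiponectin, 7.25 ± 0.25 and 6.32 ± 0.35 (SD, n = 5 each). In PDTC adults the gap was 0.47 ± 0.31 for Adipoq, -0.47 ± 0.43 for Cidec and 0.25 ± 0.15 for Lpl, and none passed. Of the same list Lep was above background on 0 of 5 arrays in each adult group and Ucp1 on 0 or 1 of 5. The summed signal of 7 adrenal cortex markers was 112.1 to 335 in untreated males, 183 to 332 in untreated females, 178 to 270 in PDTC males and 190 to 341 in PDTC females. Star was above background on 4 or 5 of 5 arrays of each adult group, Cyp17a1 and Cyp21a1 on 2 to 5, and Cyp11a1, Cyp11b1, Cyp11b2 and Mc2r on 0 of 5. The part of fat or adrenal cells in the members' gaps was not tested.

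No sex gap passed in pups. Only Adh6, Akr1c12l1 by its first probe, and Slc51b could be tested there, since Sds, both probes of Dhrs7l1 and the second of Akr1c12l1 were above background on 0 of 39 pup arrays. At 2 days, with both treatments in the fit, the gap was 0.08 ± 0.18 for Adh6, -0.20 ± 0.08 for Akr1c12l1 and -0.05 ± 0.09 for Slc51b. At 2 weeks it was 0.01 ± 0.13, 0.08 ± 0.11 and -0.13 ± 0.14 in the same order, with Akr1c12l1 above background on 11 of 21 arrays. None of the 3 passed in limma at either age, where 0% of 13163 and 0% of 13360 probes passed and 151 and 159 had an unadjusted p under 0.05. Akr1c12l1 at 2 days was the only member value with such a p (0.0281, limma adjusted p = 0.999985). The 95% intervals of the gap were -0.30 to 0.45 for Adh6, -0.37 to -0.02 for Akr1c12l1 and -0.24 to 0.14 for Slc51b at 2 days, and -0.27 to 0.28, -0.16 to 0.31 and -0.41 to 0.16 at 2 weeks. The change of the gap between these ages was -0.07 ± 0.22 for Adh6, 0.28 ± 0.15 for Akr1c12l1 and -0.08 ± 0.17 for Slc51b. None passed in limma, nor did any probe of the array (0% of 14079, with an unadjusted p under 0.05 for 0.838%).

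Between 2 weeks and adulthood the gap opened, as tested in PDTC rats of both ages. It changed by 4.96 ± 0.49 for Adh6 (limma adjusted p = 4.24e-06), -4.35 ± 0.46 for Akr1c12l1 (1.12e-05 by the same test), -6.41 ± 0.38 for Dhrs7l1 (3.06e-09) and -3.26 ± 0.23 for Slc51b (2.71e-08). Dhrs7l1 was above background on 7 of the 20 arrays of this fit, the second Akr1c12l1 probe on 6 and Sds on 10, all of them adult. Their 2-week gap is thus a difference of background readings, and their change rests on the adult values. The second Akr1c12l1 probe changed by -5.01 ± 0.62 (limma adjusted p = 8.18e-05). On the deposited log2 values these changes were 3.50 for Adh6, -4.95 for Dhrs7l1, -1.91 for Slc51b and -3.47 for the second Akr1c12l1 probe, each still called. Sds, at 2.30 ± 0.75, did not pass (limma adjusted p = 0.198), and without PDTC adult female 1 it was 2.98 and did (0.00161). So 5 of 6 tested member probes passed, against 0.718% of 13236 probes. That share rests on 95 calls, which were 41 without PDTC 2-week male 4 and 734 without PDTC adult male 2. Leaving out 1 array moved them by over 1.5 times in 11 of 20 fits, and the same 5 member probes passed in each. These values hold the same 10 PDTC adults as the gap above and are no second test of it. No rat was sampled between 2 and 36 weeks, so the age at which the gap opened within that span was not measured.

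**Figure D3:**
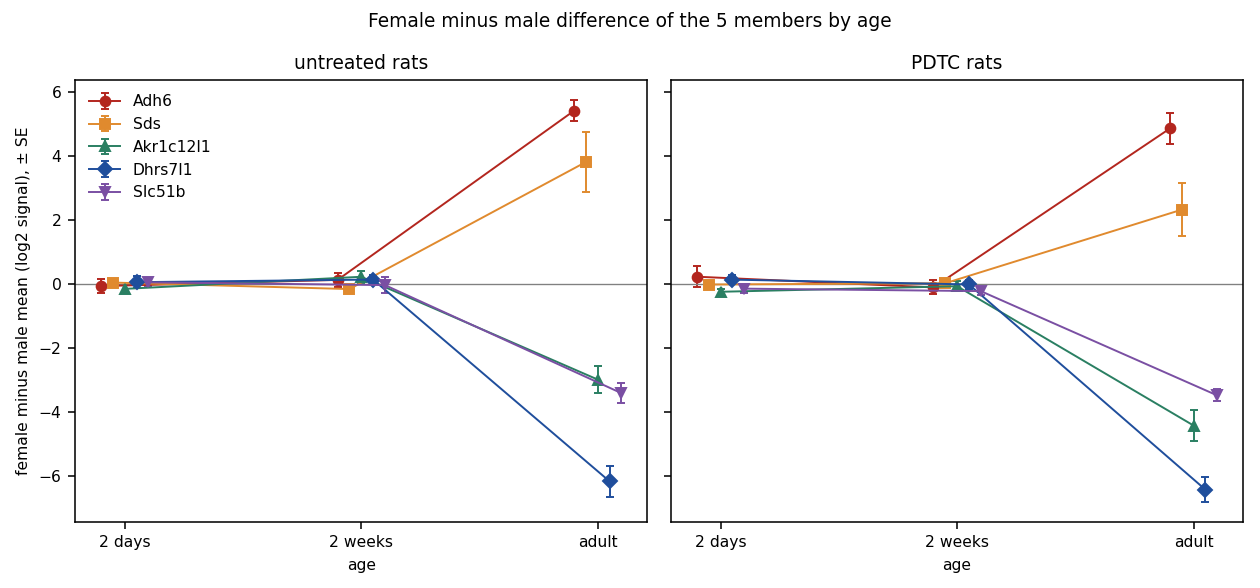
Female minus male mean log2 signal (y axis) of the 5 genes at 2 days, 2 weeks and adulthood (x axis) in untreated (left) and PDTC rats (right), with bars of ± 1 SE of the difference. In pups the lines of Adh6, Akr1c12l1 and Slc51b run near 0. The pup points of Sds and Dhrs7l1 are differences of background readings, with 0 of 39 pup arrays above background, and show no measured gap. In adults Adh6 and Sds lie above 0 and Akr1c12l1, Dhrs7l1 and Slc51b below it.

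The gaps opened along different routes. Adh6 was high in all pups, at 9.03 ± 0.46 and 8.96 ± 0.18 in untreated males and females at 2 days, 8.56 ± 0.66 and 8.78 ± 0.11 in PDTC males and females, and 8.61 to 8.76 in the 4 groups of 2 weeks. From 2 days to 2 weeks it moved by -0.12 ± 0.16 in males and -0.19 ± 0.16 in females, and neither passed. From 2 weeks to adulthood in PDTC rats it then fell by 3.31 ± 0.37 in males (limma adjusted p = 4.12e-07, with 1 of 5 adult arrays above background) and rose by 1.65 ± 0.33 in females (3.15-fold, limma adjusted p = 0.000241). Untreated groups moved alike, from 8.63 to 5.29 in males, at least 7.05-fold lower, and from 8.76 to 10.70 in females, with no test. Over the 12 groups the adult females stood highest, at 10.70 and 10.27 with ranges that overlap each other and that of untreated 2-day males, the 8 pup groups followed between 8.56 and 9.03 with overlapping ranges, and the adult males lay lowest at 5.41 and 5.29.

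Sds had pup group means of 4.68 to 4.86 with 0 of 39 arrays above background, and it rose in adults of both sexes. In PDTC males it rose by 3.48 ± 0.56 (at least 7.71-fold, limma adjusted p = 3.91e-05) and in PDTC females by 5.77 ± 0.51 (at least 39.5-fold, limma adjusted p = 1.12e-08). The untreated means rose from 4.85 to 7.63 in males and from 4.69 to 11.44 in females, with no test. Its spread among adults was wide: the highest untreated female signal was 22.1 times the lowest, and the highest PDTC female 18.7 times the lowest. The order of its groups was untreated females (11.44 ± 1.80), PDTC females (10.49 ± 1.61), PDTC males (8.17 ± 0.92) and untreated males (7.63 ± 1.05, SD, n = 5 each), where neighbours overlap.

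Akr1c12l1 fell before it rose. It went down from 2 days to 2 weeks, by 0.86 ± 0.10 in males (limma adjusted p = 2.40e-08) and 0.59 ± 0.10 in females (limma adjusted p = 1.37e-05), from group means of 5.88 to 6.14 down to 5.22 to 5.44. At 2 weeks Akr1c12l1 was above background on 11 of 21 arrays, so the lower end of this fall lies near background. Slc51b moved the other way over these 2 weeks. It rose by 0.82 ± 0.12 in males (limma adjusted p = 1.81e-06) and 0.74 ± 0.12 in females (limma adjusted p = 5.83e-06), from 5.15 to 5.59 up to 5.99 to 6.27. On the deposited log2 values the male steps were -0.36 for Akr1c12l1 and 0.35 for Slc51b, and the female steps -0.24 and 0.32, all still called. Of the 3 tested member probes 2 passed in each sex. The background is high: 36.1% of 14079 probes passed in males and 37.0% in females.

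In adulthood Akr1c12l1 was above its 2-week level in both sexes, and in PDTC males it rose by 6.91 ± 0.34 (120-fold, limma adjusted p = 3.23e-12). In PDTC females it rose by 2.56 ± 0.31 (5.90-fold, limma adjusted p = 8.49e-07). At 2 weeks 2 of 4 PDTC male and 3 of 6 PDTC female arrays were above background, so both folds start from readings near it. The second probe rose by 5.41 ± 0.46 in males (at least 26.7-fold, limma adjusted p = 1.07e-08) and read 0.40 ± 0.41 in females (limma adjusted p = 0.422). Over groups the first probe ranked PDTC males (12.23 ± 0.84), untreated males (11.33 ± 0.73), untreated females (8.34 ± 0.60) and PDTC females (7.80 ± 0.67, SD, n = 5 each). Each sex's 2 treatments overlap in that order, and the sexes do not.

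Dhrs7l1 went from 0 of 39 arrays above background in pups, with group means of 4.76 to 4.94, to a strong signal in adult males. In PDTC males it rose by 7.11 ± 0.28 (at least 103.6-fold, limma adjusted p = 1.04e-13), and the untreated male mean went from 4.80 to 11.26. In PDTC females the step was 0.70 ± 0.25 (at least 1.24-fold, limma adjusted p = 0.0229), with 2 of 5 adults above background. It no longer passed without PDTC female 2 (0.61, limma adjusted p = 0.0577) or PDTC female 4 (0.60, limma adjusted p = 0.0637). Slc51b parted from a shared level: it rose by 2.34 ± 0.17 in PDTC males (5.06-fold, limma adjusted p = 1.18e-09) and fell by 0.92 ± 0.15 in PDTC females (at least 1.10-fold lower, limma adjusted p = 3.92e-05). Adult males held its highest levels, 8.55 ± 0.40 and 8.44 ± 0.66, and adult females its lowest, 5.07 ± 0.12 and 5.03 ± 0.26 (SD, n = 5 each). Pup means lay between, and the ranges of 2-day pups overlap those of adult females.

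All 6 tested member probes passed between 2 weeks and adulthood in PDTC males, 5 upward and 1 downward. Of all 13236 probes 49.7% passed there, 23.8% upward and 25.8% downward. In PDTC females 5 of 6 passed, 4 upward and 1 downward, against 60.6% of all probes, 29.1% upward and 31.4% downward. The members' share is to be read against these high backgrounds. Sds, Dhrs7l1 and the second Akr1c12l1 probe also reached the 4 arrays above background needed for a test only through adults. The counts are thus no support for a step. On the deposited log2 values the steps were smaller, in males 5.32 for Dhrs7l1, 5.36 for Akr1c12l1, 1.98 for Sds, 1.52 for Slc51b and -1.998 for Adh6, and in females 4.03 for Sds, 1.37 for Akr1c12l1 and -0.39 for Slc51b.

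Early PDTC was then compared with no treatment. In adult males the effect was 0.12 ± 0.39 for Adh6, 0.54 ± 0.79 for Sds, 0.90 ± 0.42 for Akr1c12l1, 0.66 ± 0.40 for Dhrs7l1 and 0.11 ± 0.25 for Slc51b (SE, n = 5 per group). In adult females it was -0.43 ± 0.39, -0.95 ± 0.79, -0.54 ± 0.42, 0.40 ± 0.40 and 0.04 ± 0.25 in the same order. No member passed in limma in either sex, and neither did any other probe (0% of 11701 in males, with 945 at an unadjusted p under 0.05, and 0% in females, with 681). The untreated adults in these comparisons are those that chose the genes, so their means may be extreme by choice.

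The 95% intervals give the size of effect that these rats leave possible. For Slc51b it was -0.42 to 0.64 in males and -0.49 to 0.57 in females, and for Adh6 -0.69 to 0.93 and -1.24 to 0.37. For Dhrs7l1 it was -0.18 to 1.504 and -0.44 to 1.24. The wide spread of Sds left -1.12 to 2.19 in males and -2.60 to 0.70 in females. A change of the gap itself is the female effect minus the male effect. Its interval was -0.82 to 0.68 for Slc51b, -1.70 to 0.59 for Adh6 and -1.45 to 0.93 for Dhrs7l1. For Sds it was -3.83 to 0.85. The untreated adult gaps chose the genes and are no measure for these intervals.

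Akr1c12l1 had the largest male value. Its interval in males was 0.03 to 1.77, with an unadjusted p of 0.0423 (limma adjusted p = 0.607), and 4 of 5 PDTC males lay above the untreated mean. Its second probe read 1.30 ± 0.55 (0.15 to 2.44, limma adjusted p = 0.604), also with 4 of 5 above. In females 4 of 5 PDTC rats lay below the untreated mean of the first probe. The second probe read 0.16 ± 0.55 in females, above background on 0 of 5 untreated and 1 of 5 PDTC arrays. By the first probe the effect differed between the sexes by -1.44 ± 0.59 (95% interval -2.66 to -0.21, limma adjusted p = 0.630), which corresponds to adult gaps of -2.99 without and -4.42 with PDTC. By the second it differed by -1.13 ± 0.78 (-2.76 to 0.49, limma adjusted p = 0.681). The difference for the other genes was -0.55 ± 0.55 for Adh6, -1.49 ± 1.12 for Sds, -0.26 ± 0.57 for Dhrs7l1 and -0.07 ± 0.36 for Slc51b. No member probe passed in limma (0% of 11701 probes did, with 919 at an unadjusted p under 0.05). In 1 fit of all 59 arrays 1 member probe passed for males, the second of Akr1c12l1 (limma adjusted p = 0.0398), and 1 for the sex difference, the first (limma adjusted p = 0.0381). Over the whole array 255 probes passed for males in that fit and 377 for the sex difference. It pools the spread of adults and pups. The SD of the second probe was 0.03 to 0.23 in pup groups, against 1.18 in untreated and 1.24 in PDTC adult males. That of the first probe was 0.12 to 0.40 in pup groups and 0.60 to 0.84 in adult groups. The part of this spread in the 2 calls was not tested.

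**Figure D4:**
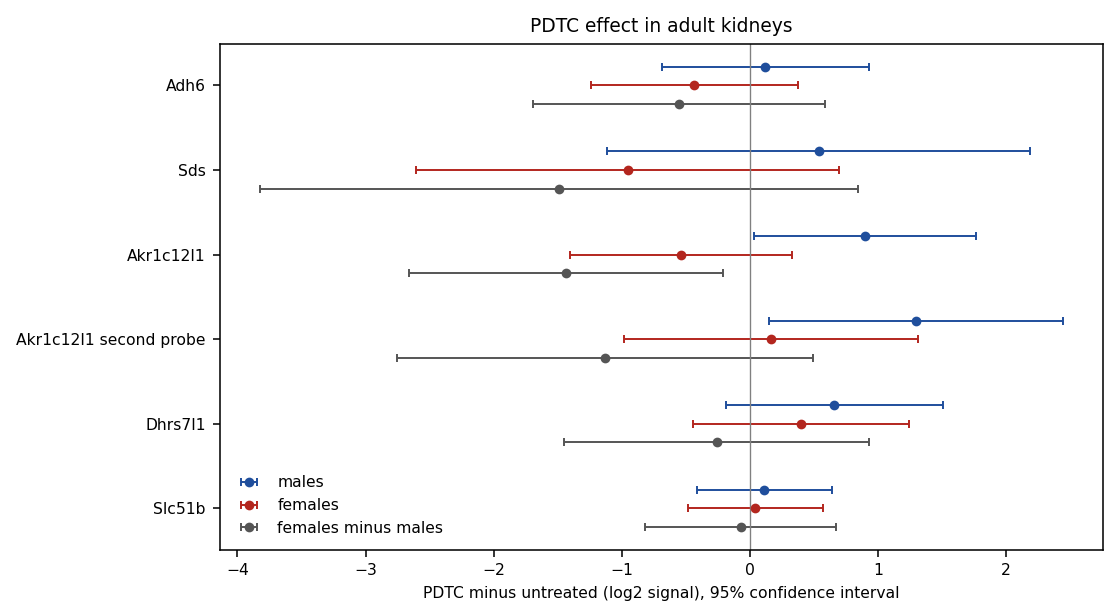
PDTC minus untreated log2 signal in adult kidneys (x axis) for the 6 tested member probes (y axis), with points for the estimate in males (blue), in females (red) and for females minus males (grey) and bars for 95% confidence intervals. The intervals of Slc51b are the narrowest and those of Sds the widest, and 3 intervals of Akr1c12l1 probes lie off 0: both in males and the sex difference of the first.

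In pups Slc51b at 2 days had the smallest p of the member values for PDTC. Males without PDTC read 5.59, 5.35, 5.36, 5.75 and 5.64 and untreated females 5.88, 5.40, 5.39, 5.52 and 5.75. PDTC males read 5.38, 5.04, 5.33 and 5.455 and PDTC females 5.37, 5.18, 4.95 and 5.12. These signals lie near background, with 3 of 4 PDTC male and 2 of 4 PDTC female arrays above it. The PDTC effect was -0.34 ± 0.09 (95% interval -0.53 to -0.15, unadjusted p = 0.00159) and did not pass over all probes (limma adjusted p = 0.137). Of the 13163 probes tested at 2 days 15.8% had an unadjusted p under 0.05. The effect passed with array weights, at -0.36 (limma adjusted p = 0.0412), where 373 of all probes passed, against 0 without weights. Slc51a, the alpha subunit that pairs with it for transport, was looked up after the values of Slc51b were seen. Without PDTC it read 8.72 ± 0.11 in males and 8.84 ± 0.14 in females, and with it 8.08 ± 0.41 and 8.41 ± 0.42, an effect of -0.53 ± 0.13 (limma adjusted p = 0.125).

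At 2 days the PDTC effect was about as large for Adh6, at -0.33 ± 0.18 with a wider spread, and -0.06 ± 0.08 for Akr1c12l1. At 2 weeks, while dams were still being dosed, it was -0.03 ± 0.13 for Adh6, -0.05 ± 0.11 for Akr1c12l1 and -0.15 ± 0.14 for Slc51b. No member passed in limma at either age (0% of 13163 probes at 2 days, with 2085 at an unadjusted p under 0.05, and 0% of 13360 at 2 weeks, with 697).

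The adult sex gap of Slc51a did not pass. In PDTC adults it was -0.04 ± 0.40 (limma adjusted p = 0.980), with 8.65 ± 0.998 in males and 8.615 ± 0.31 in females, against -3.48 ± 0.19 for Slc51b. The difference between the 2 subunits was not tested. In untreated adults Slc51a read 8.92 ± 0.24 in males and 8.68 ± 0.70 in females. From 2 days to 2 weeks it rose along with Slc51b, by 0.59 ± 0.14 in males (limma adjusted p = 0.000734) and 0.38 ± 0.13 in females (limma adjusted p = 0.0233). Over the following step in PDTC rats it read -0.33 ± 0.34 in males and -0.37 ± 0.31 in females, and neither passed.

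Other genes of the same pathways were read in the PDTC adult gap from lists. Of 25 genes of alcohol, aldehyde and retinol oxidation 14 had a named probe and 11 were tested. Adh1c, the main ethanol-oxidising dehydrogenase of rat liver and a family member of Adh6, was higher in females by 2.14 ± 0.42 (limma adjusted p = 0.0419). The other 10 did not pass, and over the array 0.731% of the probes tested did. The alternative settings were not run for genes of the lists, so a call of such a gene rests on the main fit alone. The retinol dehydrogenase Rdh16 read -1.43 ± 0.36 (limma adjusted p = 0.111), and the aldehyde dehydrogenases Aldh1b1 and Aldh1a1 read 0.54 ± 0.22 and -0.32 ± 0.16. The list's median gap was -0.32 against 0.01 over all probes. The group means of Adh1c were 12.51 ± 0.83 in PDTC females and 10.37 ± 0.72 in PDTC males, and 13.33 ± 0.56 and 10.83 ± 0.19 in untreated females and males.

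Of 41 aldo-keto and short-chain reductases, relatives of Akr1c12l1 and Dhrs7l1, 28 were tested. Hsd11b1, which regenerates active glucocorticoid, was higher in males by 0.89 log2, with a gap of -0.89 ± 0.16 (limma adjusted p = 0.0314), and the other 27 did not pass. Akr1c19 read -0.60 ± 0.15 (limma adjusted p = 0.104), Hsd17b12 0.53 ± 0.14 (limma adjusted p = 0.117) and Hsd3b1 -1.29 ± 0.44 (limma adjusted p = 0.209). The median gap of this list was 0.06 against 0.01 over all probes. From 2 weeks to adulthood Hsd11b1 rose in both sexes, by 3.67 ± 0.15 in PDTC males and 2.70 ± 0.14 in PDTC females (limma adjusted p = 1.78e-13 and 3.52e-12).

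None of the 20 tested genes of serine, glycine and threonine metabolism passed, of 28 listed. Gnmt, the glycine methyltransferase, came closest at 0.74 ± 0.16 (limma adjusted p = 0.0658), and its gap changed from 2 weeks to adulthood by 0.94 ± 0.18 (limma adjusted p = 0.0169). Agxt2, Amt and Srr read -0.47 ± 0.17, 0.48 ± 0.21 and -0.36 ± 0.20 in the PDTC adult gap. None of 18 tested genes of bile acid and organic anion transport passed either, of 35 listed, with 0.63 ± 0.20 for the xenobiotic receptor Nr1i2 as the smallest p (limma adjusted p = 0.182). The carriers Slc10a6, Abcg2 and Slc10a1 read 0.56 ± 0.23, -0.46 ± 0.20 and -0.63 ± 0.30. Of 18 receptors and signal genes of sex steroids, prolactin and growth hormone 14 had a named probe, 7 were tested and 0 passed. The prolactin receptor Prlr read -1.15 ± 0.34 (limma adjusted p = 0.164) and the growth hormone receptor Ghr -0.51 ± 0.36 (limma adjusted p = 0.517), and their signal genes Stat5b and Cish -0.29 ± 0.20 and 0.46 ± 0.35. Untreated females and males read 8.27 and 8.40 for Prlr, 7.81 and 7.54 for Ghr, 7.72 and 7.18 for Stat5b, and 7.40 and 6.495 for Cish. Ghr and Stat5b thus ran toward females without PDTC, with no test. The estrogen receptors Esr1 and Esr2, the progesterone receptor Pgr and Gper1 were above background on 0 of 20 adult arrays. No sex steroid receptor was thus among the genes tested, and a gap in them was not measured. No gene of the 5 lists passed in any of the PDTC comparisons, in which 0% of all probes passed.

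The members fell into patterns over the 12 group means, given as a description in which the 4 adult groups carry most of the variation. Dhrs7l1 correlated with Akr1c12l1 at r = 0.93 and with Slc51b at 0.91, and Akr1c12l1 with Slc51b at 0.72. Adh6 ran opposite to them, at -0.88 with Dhrs7l1, -0.94 with Slc51b and -0.66 with Akr1c12l1. Sds, which rose in both sexes, stood apart at 0.12 with Adh6, 0.36 with Dhrs7l1, 0.05 with Slc51b and 0.64 with Akr1c12l1. Among 9830 named genes the 3 most like each member over those 12 means were Cyp2d5 (0.996), Cyp2d1 (0.990) and Ces1e (0.980) for Dhrs7l1, Ctsc (0.985), Iqch (0.981) and Ces1e (0.978) for Akr1c12l1, Tmem123 (0.958), Rgn (0.957) and Apoh (0.944) for Slc51b, Azgp1 (0.994), Oat (0.990) and Pax6 (0.990) for Sds, and Spink8 (0.943), Orc5 (0.938) and Evpl (0.928) for Adh6. Likeness in r does not carry size: Cyp2d5, a cytochrome P450, went from 5.37 in untreated adult females to 9.38 in males, while Tmem123 read 11.10 and 11.58.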

How the data were processed

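RNA of 59 rat kidneys was hybridised to Illumina RatRef-12 arrays, 1 array per rat. The deposited table of intensity values holds 1 signal per probe and array, and the medians differed between arrays. Beside each signal it gives a deposited detection p-value per the file headers, which was small below as well as above background and so was read as two-sided. The authors also deposited log2 values, which had the same ranks within each array as the signals and lay within 0.262 of quantile-normalized log2 signals. Their scale and direction were thus clear, genes were not centred, and the medians of their columns were 6.70 to 6.71. The sources used here name no software for these values.

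Each array's background level was set at the median of 50 probes, those of highest detection p-value, and its SD from the signals under that level. Signals were corrected with normexp, 16 was added, and arrays were quantile-normalized and put on the log2 scale. A probe was above background at a one-sided p under 0.05 and was tested if above background on at least 4 arrays of the fit. limma 3.58.1 in R 4.3.3 was fitted with group means, lmFit and eBayes, and p-values were adjusted by Benjamini-Hochberg over all probes tested in a comparison, with a threshold of 0.05. The PDTC adult gap used the 10 PDTC adults, the gap and PDTC effect of an age all arrays of that age, and steps between ages all pups or the PDTC rats of both ages. Where 0 arrays of a group were above background, the fold is given as a bound against the lowest signal above background. The fit was tested on simulated data.

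A single gene symbol was paired with 13793 probes, several with 0, and no symbol with 8730, and 13752 of the symbols were matched by gene ID to assembly GRCr8. Of several probes of a gene the brightest on average stands for it, and the others are named where they disagree. Of each pathway list the 4 genes with the smallest p in the PDTC adult gap were named, and 2 where one passed elsewhere, and for each member the 3 genes with the highest r. Adh1c was listed under its older name Adh1. The members and lists were chosen with earlier results of these data known. The markers of leukocytes and of other nephron segments were read too: 6 of 7 leukocyte markers with a probe were above background in each adult group, and all 4 of the other nephron segments. Alternatives were no normexp correction, scaling to 1 median, no filter, slide as a fixed term, the log2 values as deposited, array weights, a joint fit of all 59 arrays, each treatment alone in pups and leaving out each array. Slide as a random block was added after the data were seen.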

Additional observations from a re-analysis of the deposited data

Results flagged for a closer look

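In 46 sets of values, 1 for each member probe and group with any array above background, 4 held a rat far from the others of its group by Dixon's test at 95%, which flags about 1 in 20 groups by chance. In untreated adult females rat 5 read 9.59 for Adh6, against 10.84 for the next lowest, and 5.995 for Dhrs7l1, against 5.01 for the next highest. The second Akr1c12l1 probe read 6.48 in PDTC adult female 2, against 4.79 for the next highest. The second Dhrs7l1 probe read 6.56 in PDTC adult female 1, against 5.09.

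The sex gap differed between 2 weeks and adulthood in PDTC rats by a test of the change itself for 5 member probes: 4.96 for Adh6, -4.35 for Akr1c12l1, -5.01 for its second probe, -6.41 for Dhrs7l1 and -3.26 for Slc51b. Dhrs7l1 and the second Akr1c12l1 probe were above background on 0 arrays at 2 weeks, so their change rests on the adult values.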

How the results depend on the processing

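Of 525 values of member probes under alternatives other than leaving out an array, 492 were counted as unchanged. For tested values this meant the same direction and side of the threshold. Untreated adult gaps, which had no test, counted as unchanged if they moved by less than the SD within groups. The 5 member probes called in the PDTC adult gap and in its change since 2 weeks were called under every alternative run, although their sizes moved with the background correction. The cause of these moves and of the changes below was not tested. In 1 fit of all 59 arrays 1 member probe passed for PDTC in adult males and 1 for the sex difference of the effect, against 0, and with array weights 1 passed at 2 days, against 0. Of all probes 255, 377 and 373 passed in the same order, against 0 each. Sds passed for the PDTC adult gap in that fit of all arrays (2.32, adjusted p = 0.00175), where 1321 of all probes passed, against 79. From 2 weeks to adulthood in PDTC females Dhrs7l1 was no longer called without normexp (0.40) or on the deposited values (0.36), nor Adh6 with arrays scaled to 1 median (0.72). Without normexp, with that scaling or on the deposited values, the untreated adult gap was 3.87 to 4.62 for Adh6, -5.32 to -4.52 for Dhrs7l1, -2.41 to -1.96 for Slc51b and -2.75 to -2.30 for the second Akr1c12l1 probe.

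Signs turned only for values that passed in no setting. Slc51b at 2 days had a gap of 0.0323 with array weights and 0.0489 in untreated rats alone, and Adh6 -0.0672 in the latter. At 2 weeks the gap of Adh6 was -0.0132 with slide as a fixed term, -0.0156 with array weights, -0.0041 with slide as a random block and -0.11 in PDTC rats alone, where that of Akr1c12l1 was -0.0714. With arrays scaled to 1 median the gap of Adh6 changed by 0.0070 from 2 days to 2 weeks, and the PDTC effect was 0.0508 for Akr1c12l1 at 2 days and 0.17 for Adh6 at 2 weeks. The latter was 0.0176 with slide as a fixed term and 5e-04 as a random block. The sex difference of the PDTC effect on Slc51b was 0.0375 with slide as a fixed term.

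With each array left out in turn 1406 of 1435 values were counted as unchanged by the same rule, 25 turned sign and 4 crossed the threshold. The untreated adult gap of the second Dhrs7l1 probe ran from -0.25 to 0.0523 and was left out of the sign count. The counts of member probes called ran from 5 to 6 for the PDTC adult gap and for its change, and from 4 to 5 for the adult step in PDTC females. The 2-day gap of Adh6 ran from -0.0702 to 0.19, the 2-week gap from -0.0845 to 0.0755 and that of Akr1c12l1 from -5e-04 to 0.14. The change from 2 days to 2 weeks ran from -0.18 to 0.0791 for Adh6 and from -0.13 to 0.0208 for Slc51b. PDTC effects ran from -0.13 to 0.31 for Slc51b in adult males, from -0.0276 to 0.15 for it and from -0.20 to 0.30 for the second Akr1c12l1 probe in adult females, from -0.27 to 0.17 for the sex difference of Slc51b, and from -0.0936 to 0.0664 for Adh6 and -0.11 to 0.0266 for Akr1c12l1 at 2 weeks.

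Counts over all probes moved more. For the PDTC adult gap 79 became 33 with scaling, 49 with no filter, 35 with slide as a fixed term, 1321 in the fit of all arrays and 694 with array weights. Its change since 2 weeks went from 95 to 31, 57, 35, 157 and 743 in the same order, and from 41 to 734 with 1 array left out, the latter without PDTC adult male 2. For PDTC effects 0 became 255 in adult males, 138 in adult females, 377 for the sex difference and 1 at 2 days in the fit of all arrays. With array weights it became 38 in adult males, 1 for the sex difference and 373 at 2 days. With 1 array left out it reached 10 in adult males without PDTC male 2, 2 for the sex difference without untreated female 4, and at 2 days 258 without untreated male 4, 36 without PDTC male 4 and 1 without untreated female 3. Scaling took the steps from 2 days to 2 weeks from 5077 to 3001 in males and from 5213 to 3237 in females. No paired analysis was possible because the labels give no replicate numbers. Signals near background limit Sds, Dhrs7l1 and the second Akr1c12l1 probe in pups, where no gap could be tested. They also limit the first Akr1c12l1 probe at 2 weeks, where it was above background on 11 of 21 arrays.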

Other observations

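Relations between members from rat to rat were looked at after the data were seen, as deviations from the mean of each adult group, in 9 relations of 10 rats each with exact permutations within treatment. Across the 10 adult males Akr1c12l1 and Dhrs7l1 went together (Pearson r = 0.92, exact permutation p = 0.000694, adjusted p = 0.00625, Spearman rho = 0.90, exact permutation p = 0.0016, adjusted p = 0.0125), and r was 0.94 without the 2 rats farthest from the median of Akr1c12l1. Sds and Slc51b also went together in males (r = 0.84, exact permutation p = 0.00778, adjusted p = 0.0233, rho = 0.78, exact permutation p = 0.0187, adjusted p = 0.0421), at 0.74 without 2 rats, as did Akr1c12l1 and Slc51b (r = 0.75, exact permutation p = 0.0156, adjusted p = 0.0351, rho = 0.81, exact permutation p = 0.0119, adjusted p = 0.0357), at 0.74 without 2 rats. Across the 10 adult females Adh6 and Sds went together (r = 0.73, exact permutation p = 0.00486, adjusted p = 0.0219, rho = 0.79, exact permutation p = 0.00278, adjusted p = 0.0125), at 0.61 without 2 rats. The remaining 5 relations had r of 0.02 to 0.63 and did not pass. A slide held too few rats of 1 group for values within slides, and the part of slides in these relations was not tested. The untreated rats in them are those that chose the genes. How many other pairs of probes go together as closely was not measured, so the relations cannot be called particular to the members.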
